A study of Mus musculus with 14 samples.

Results

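The 5 genes Usp26, Sh3rf2, Prdx6b, Ccr1l1 and Cndp1 were chosen because they were higher in the shDis3l2 library than in the shLacZ library at d2 of differentiation, and the question followed here is whether that difference was already there in 2i/LIF and whether it lasted. They are 5 of 50686 genes counted, of which 21939 are protein-coding, and all 5 are protein-coding. Since the values of d2, and in part those of d0, were known when the genes were chosen, both days are given as descriptions with no test, and only d4 to d12 were tested. Earlier results of these data were also known then, so d4 to d12 are not an independent check. Of the 5, Ccr1l1 was counted on every day from d2 to d12 in shDis3l2 and on no day in shLacZ. Usp26 was higher at d0, d2 and d4 and was nearly silent in both lines from d6 on. Sh3rf2 was higher at d0 and d2 alone, Prdx6b was higher at d2 and lower at d6, and Cndp1 was higher at d2 alone, each judged by counting error.

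The shDis3l2 line is a mouse ESC line in which a stably expressed short hairpin RNA lowers Dis3l2, an exonuclease that degrades uridylated RNA, and the shLacZ line carries a hairpin against bacterial LacZ in its place. Per the study's text, both come from ESCs with an Osr1-GFP reporter. Each line was taken undifferentiated with LIF and 2i (d0), and as embryoid bodies (EBs) with serum after both were withdrawn (every 2 days from d2 to d12). Per the study's methods, the EBs were formed in hanging drops and then kept in suspension culture. The 14 libraries are of polyA RNA, 1 per line and day. A single day therefore has no replicate check, and any other difference between the 2 cell lines cannot be told apart from the knockdown.

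Between 7178712 and 39888099 reads were counted per library, and 3 reads, taken as the floor, are 0.0752 CPM (counts per 1000000 counted reads) at the greatest depth and 0.418 CPM at the smallest, shLacZ at d4. The Dis3l2 level in shDis3l2 over that in shLacZ was 0.137 at d0, 0.281 at d2 and 0.321 at d4, rose to between 0.552 and 0.971 from d6 to d12, and was not detectably below 1 at d8 and d10. At d0, labelled as undifferentiated ESCs, the 10 pluripotency-like markers were all detected and summed to 3308 CPM in shLacZ and 2482 CPM in shDis3l2. Each ratio below is the CPM in shDis3l2 over that in shLacZ with a 95% Clopper-Pearson interval, which covers counting error only and compares 2 libraries, not 2 lines. In EBs, fewer cells of a type and less RNA per cell cannot be told apart.

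The 5 genes belong to unrelated families. Usp26 encodes a ubiquitin-specific protease, an enzyme that removes ubiquitin from proteins, and is an X-linked gene known for its expression in testis. Sh3rf2 encodes a relative of POSH, a RING finger scaffold protein that brings together Rac and the kinases of the JNK stress cascade. Prdx6b is a copy of Prdx6, whose product reduces peroxides and phospholipid hydroperoxides. Ccr1l1 is a relative of Ccr1, a receptor through which leukocytes follow CC chemokines. Cndp1 encodes a carnosinase, a peptidase that splits the dipeptide carnosine.

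Prdx6b is shown first at the level of sequence, because reads of near-identical copies can be miscounted. The coding parts of Prdx6b and Prdx6 are both 672 bases long and were identical at 624 of 672 aligned positions (92.9%), with 53 bases as the longest identical run. Their first 90 coding bases are given here from the GENCODE M21 transcripts on GRCm38, with the 3 positions that differ in capitals, at chr2:80292849-80292938 on the plus strand for Prdx6b and chr1:161251027-161251116 on the minus strand for Prdx6.
Prdx6b: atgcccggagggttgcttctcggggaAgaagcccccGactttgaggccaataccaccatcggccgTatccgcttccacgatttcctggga
Prdx6: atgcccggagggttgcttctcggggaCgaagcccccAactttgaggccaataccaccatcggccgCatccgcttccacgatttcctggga
Of the 2836 stretches of 50 bases in the Prdx6b transcript, 7 (0.247%) also occur in a transcript of another gene, and that gene is Prdx6. Ccr1l1 and Ccr1 were identical at 812 of 1069 aligned coding positions (76.0%), with 31 bases as the longest run. No 50-base stretch of Ccr1l1, Usp26 or Sh3rf2 occurs in another gene's transcripts. Of the stretches of Cndp1, 341 of 5994 (5.69%) do, in 135 other genes, the largest share among the genes chosen. These shares cover exact matches only and weigh neither near matches nor the abundance of the other gene. The origin of the reads was not tested for any of the genes, and they are not ranked by it.

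The start regions of Usp26 and Ccr1l1, the pair whose values reach past d2, are given from RefSeq on GRCm38.p6, from 250 bases before to 50 after the start. The RefSeq table used holds 2 of the 5 genes. Capitals mark the matches on either strand to 6 motifs: the TATA box written TATAAA, the CCAAT box written CCAAT, the GC box written GGGCGG, the E box written CACGTG, the core of the cAMP response element written TGACG and the octamer written ATGCAAAT. The regions are chrX:51801184-51801483 for Usp26 and chr9:123986666-123986965 for Ccr1l1, both read on the minus strand.
Usp26: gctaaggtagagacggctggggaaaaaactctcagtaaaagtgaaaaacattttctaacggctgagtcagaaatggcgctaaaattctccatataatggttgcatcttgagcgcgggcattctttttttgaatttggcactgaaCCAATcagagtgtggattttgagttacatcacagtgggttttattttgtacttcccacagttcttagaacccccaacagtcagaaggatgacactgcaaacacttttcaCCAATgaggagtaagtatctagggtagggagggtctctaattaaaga
Ccr1l1: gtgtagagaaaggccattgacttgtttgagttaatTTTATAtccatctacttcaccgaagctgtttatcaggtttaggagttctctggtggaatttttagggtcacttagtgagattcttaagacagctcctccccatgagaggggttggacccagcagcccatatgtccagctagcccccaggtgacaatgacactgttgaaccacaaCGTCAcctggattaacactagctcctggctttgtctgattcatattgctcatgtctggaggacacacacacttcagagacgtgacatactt
Usp26 holds CCAAT at -106 and at 4, a motif found in 37.4% of 32851 promoters, and 5 CpG sites. Ccr1l1 holds TATAAA on the other strand at -215, found in 13.6% of promoters, TGACG on the other strand at -41, found in 20.8%, and 3 CpG sites. The median promoter holds 7 CpG sites. The 2 windows share no motif of the 6, and a match to these letters is a description, not a binding site. The RefSeq start of Ccr1l1 lies 8307 bases before the single exon on which its reads were counted, so reads from a first exon there would not be in the counts.

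Usp26 (ENSMUSG00000055780, chrX:51753959-51801233, minus strand, 4133 exon bases) held the most reads of the 5 genes. In shLacZ it was counted at 1, 113, 3, 0, 3, 1 and 6 reads from d0 to d12. In shDis3l2 it was counted at 7, 701, 92, 2, 10, 7 and 5 reads on the same days. Both lines therefore had their highest level at d2, 4.28 CPM in shLacZ and 32.8 CPM in shDis3l2, and both fell after it. From d0 to d2 Usp26 rose by a factor of 171 in shLacZ (30.0 to 6807) and of 124 in shDis3l2 (59.8 to 309), and the level at d4 over that at d2 was 0.0976 (0.0198 to 0.292) and 0.136 (0.108 to 0.169). The level at d12 over that at d2 was 0.139 (0.0499 to 0.312) in shLacZ and 0.0143 (0.00463 to 0.0335) in shDis3l2. These intervals do not overlap, but the gene was chosen on d2, so that gap follows in part from the choice. The lines thus peaked on the same day at different heights and came to like levels at d12, 0.595 CPM in shLacZ and 0.468 CPM in shDis3l2.
The ratio of Usp26 between the lines was 10.5 (1.35 to 475) at d0, where it rests on 1 and 7 reads. At d2, the day the gene was chosen on, it was 7.65 (6.26 to 9.41). At d4 the ratio was 10.6 (3.53 to 52.5), from 3 and 92 reads. The higher level in shDis3l2 was thus still present at d4, when the shLacZ level was 0.418 CPM and the shDis3l2 level 4.45 CPM. At d6 both libraries were at or under the floor and no ratio is given. At d8, d10 and d12 the ratios were 2.87 (0.738 to 16.2), 2.74 (0.352 to 123) and 0.787 (0.190 to 3.09), each with an interval that includes 1 and with no more than 10 reads in any library. The interval of d12 lies wholly below that of d2, but the ratio of d2 chose the gene, so a lower later ratio follows in part from the choice.

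Sh3rf2 (ENSMUSG00000057719, chr18:42053667-42158960, plus strand, 5307 exon bases) was the 1 member with a clear difference in undifferentiated cells. In shLacZ it was counted at 32, 11, 1, 14, 22, 10 and 18 reads from d0 to d12. In shDis3l2 the reads were 127, 68, 8, 14, 22, 40 and 30. Its level was highest at d0 in shDis3l2 (4.80 CPM) and at d12 in shLacZ (1.79 CPM), and lowest at d4 in both lines (0.387 and 0.139 CPM).
The ratio of Sh3rf2 was 5.98 (4.03 to 9.11) at d0 and 7.62 (4.00 to 16.0) at d2. The median log2 ratio of the 12161 genes compared at d0 was -0.32 with library totals and -0.04 with TMM scaling, so the value at d0 is larger after TMM scaling. On the next 3 days the ratios were 2.77 (0.372 to 123), 1.25 (0.554 to 2.84) and 0.860 (0.454 to 1.63). On the last 2 days they were 1.56 (0.769 to 3.51) and 1.57 (0.849 to 2.998). All 5 of these intervals include 1, and those of d6 to d12 exclude the ratios of d0 and d2. The ratio of d2 chose the gene and that of d0 was known in part, so lower later ratios follow in part from the choice.

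Prdx6b (ENSMUSG00000050114, chr2:80292472-80295356, plus strand) is counted on a single exon of 2885 bases. In shLacZ its reads were 1, 4, 7, 20, 4, 4 and 7 from d0 to d12, and in shDis3l2 4, 33, 31, 6, 1, 7 and 1. Its highest level was 1.503 CPM at d6 in shLacZ and 1.54 CPM at d2 in shDis3l2, so the maxima were of like height but on different days.
The ratio was 6.03 (0.596 to 297) at d0, with 1 and 4 reads, and 10.2 (3.62 to 39.5) at d2. At d4 it was 1.54 (0.664 to 4.13), and at d6 it was 0.376 (0.124 to 0.971), below 1 by counting error. The ratios of d8, d10 and d12 were 0.215 (0.00437 to 2.17), 0.685 (0.174 to 3.19) and 0.135 (0.00299 to 1.05). From d2 to d4 the level in shLacZ rose by a factor of 6.43 (1.64 to 30.0) and that in shDis3l2 was at 0.971 (0.575 to 1.64) of its level of d2.
Prdx6 itself was far more abundant, at 91.9 to 311 CPM in shLacZ and 133 to 315 CPM in shDis3l2. Its ratio was 1.44 (1.38 to 1.51) at d0 and 1.28 (1.23 to 1.33) at d2. On later days it was 1.28 at d4, 1.01 at d6 and between 0.841 and 1.03 thereafter. Prdx6b was chosen for its ratio at d2 and Prdx6 was not, so nothing is read from the gap between them on that day. The share of Prdx6b reads that came from Prdx6 was not tested.

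Ccr1l1 (ENSMUSG00000064039, chr9:123977243-123978408, minus strand) is counted on 1 exon of 1166 bases. In shLacZ it was counted at 0 reads in each of the 7 libraries. In shDis3l2 it was counted at 1 read at d0 and then, from d2 to d12, at 17, 21, 12, 14, 17 and 8 reads, 90 reads in all. From d2 to d12 every shDis3l2 library was therefore above every shLacZ library, and the level in shDis3l2 stayed between 0.712 and 1.13 CPM, with the highest value at d6.
Set against the floor of 3 reads in the shLacZ library, Ccr1l1 was at least 6.99-fold higher in shDis3l2 at d2. From d4 to d12 it was at least 2.43-fold, 5.02-fold, 4.01-fold, 2.22-fold and 2.52-fold higher, day by day. The bounds follow the depth of the shLacZ library and are no measure of a change between days. At d0 both libraries were at or under the floor, so a difference in 2i/LIF was not detectable, whereas from d0 to d2 the level in shDis3l2 rose by a factor of 21.0 (3.30 to 879). The ratio of d4 to d2 in shDis3l2 was 1.28 (0.642 to 2.58) and that of d12 to d2 was 0.943 (0.352 to 2.31).
A pattern written from the counts of Ccr1l1 itself was then looked for over d4 to d12. It was 0 reads in the 5 shLacZ libraries and above 3 reads in each of the 5 shDis3l2 libraries. The match of Ccr1l1 was thus fixed beforehand, and nothing is read from it. No other gene of the 21939 protein-coding genes (1 gene, 0.00456%), or of all 50686 genes, met the pattern. No gene showed the reverse pattern. The shDis3l2 library held 2.88 times the reads of shLacZ at d4 and 2.56 times at d10. The 2 patterns were therefore not equally easy to meet, and nothing is read from their counts. Ccr1, which lies 8551 bases away, was counted at no more than 1 read in any shLacZ library. In shDis3l2 Ccr1 had 2, 0, 4, 1 and 3 reads from d0 to d8, 23 at d10 and 15 at d12, and its ratio was 8.999 (1.46 to 371) at d10 and 14.2 (2.18 to 596) at d12. At d2 Ccr1 was thus at 0 in both lines, beside 17 reads of Ccr1l1 in shDis3l2.

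Cndp1 (ENSMUSG00000056162, chr18:84610509-84650084, minus strand, 5555 exon bases) was the scarcest of the 5. In shLacZ its reads were 10, 0, 2, 3, 3, 4 and 3 from d0 to d12, and in shDis3l2 6, 12, 0, 1, 2, 2 and 2. The total was 25 reads in each line, over 7 libraries of unequal depth.
At d0 the ratio was 0.904 (0.270 to 2.75), and the difference was not detectable in 2i/LIF. At d2 Cndp1 was at least 4.93-fold higher in shDis3l2, against a shLacZ library at 0. That library was also below its own line at d0, where the level at d2 was 0 of that at d0 with an upper bound of 0.675, while shDis3l2 was at 2.47 (0.859 to 8.04) of its level of d0. At d4, d6, d8 and d12 both libraries were at or under the floor, and at d10 the ratio was 0.196 (0.0177 to 1.36).

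**Figure D1:**
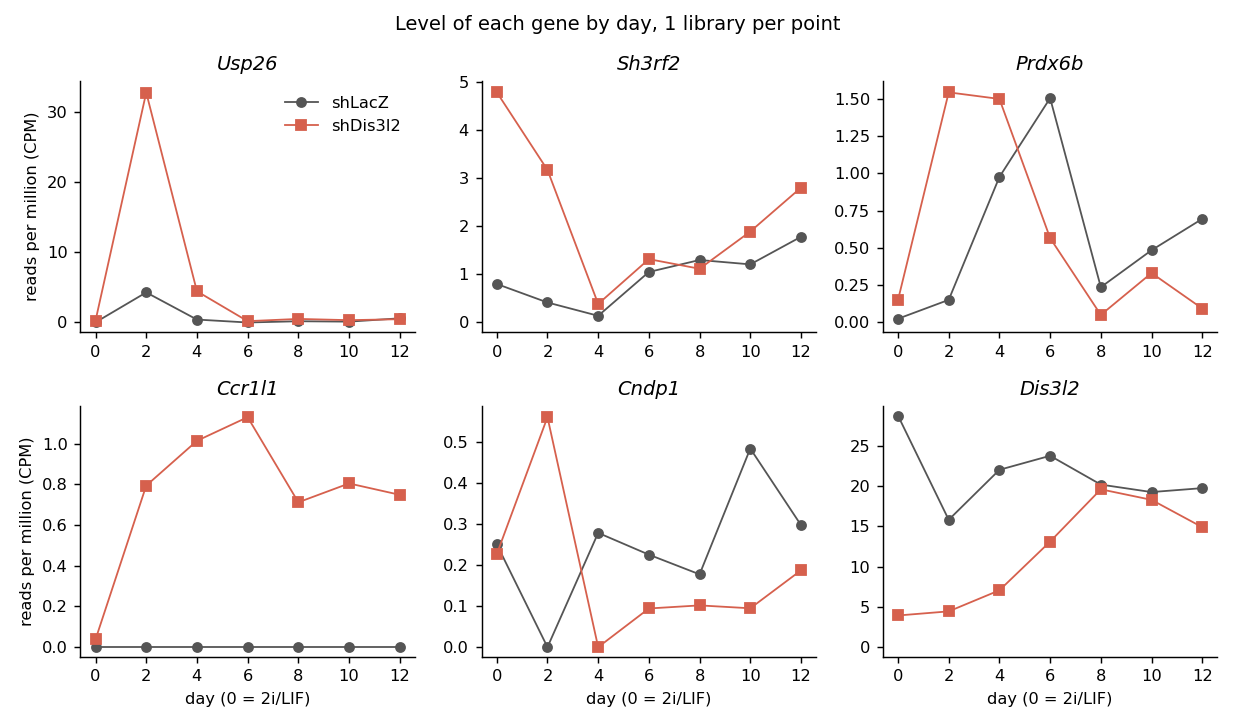
Level of the 5 genes and of Dis3l2 in CPM (linear axes that differ between panels) by day, with 1 library per point, shLacZ in grey circles and shDis3l2 in red squares. Usp26 peaked at d2 in both lines (4.28 and 32.8 CPM), Ccr1l1 was at 0 in shLacZ throughout and between 0.712 and 1.13 CPM in shDis3l2 from d2, and the Prdx6b curves crossed between d4 and d6.

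**Figure D2:**
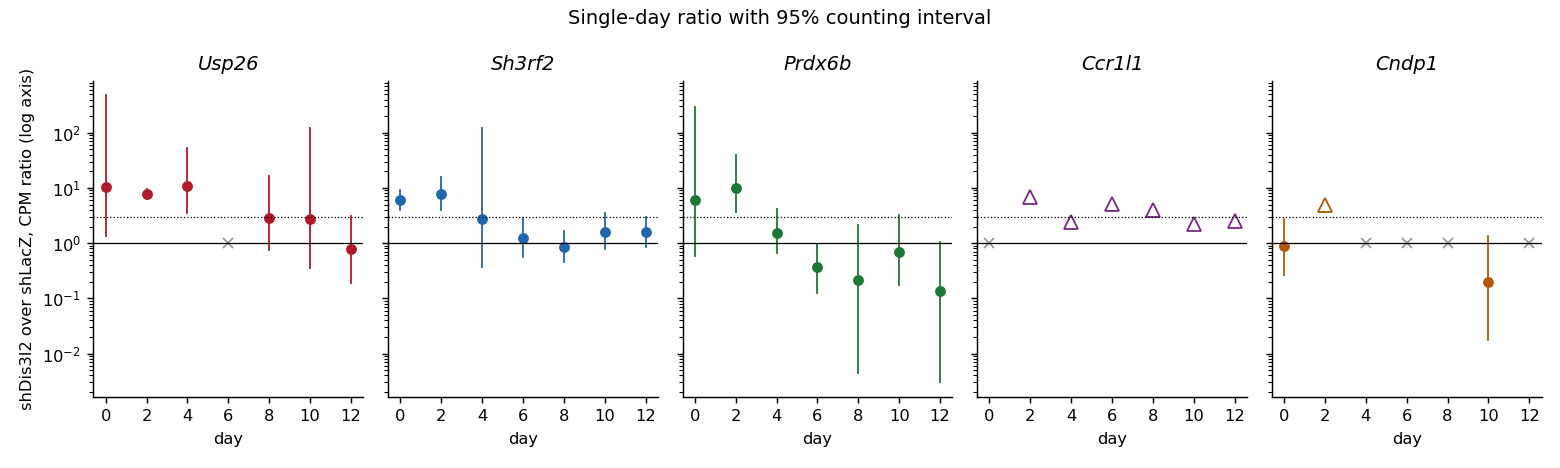
Level in shDis3l2 over shLacZ by day for each gene on a log axis, with filled points and bars for the ratio and its 95% counting interval, open triangles for the lower bound where the shLacZ library held 0 reads, and grey crosses where both libraries held 3 reads or fewer; the solid line is 1 and the dotted line 3. The Usp26 interval lies above 1 at d0, d2 and d4, that of Sh3rf2 at d0 and d2, that of Prdx6b above 1 at d2 and below 1 at d6, and the Ccr1l1 bounds lie between 2.22 and 6.99 from d2 to d12.

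Per kilobase of exon, the highest level of Usp26 was 7.93 CPM per kb, in shDis3l2 at d2. Ccr1l1 followed at 0.970 CPM per kb (12 reads) and Sh3rf2 at 0.904 CPM per kb (127 reads), a gap not tested here, and then Prdx6b at 0.534 and Cndp1 at 0.101 CPM per kb, all in shDis3l2. In shLacZ the highest levels per kb were 1.04 for Usp26, 0.521 for Prdx6b, 0.336 for Sh3rf2, 0.0872 for Cndp1 and 0 for Ccr1l1. For scale, Prdx6 reached 64.7 CPM per kb in shLacZ, so all 5 genes were rare transcripts on this per-length scale.

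A gene was counted as higher on a day when its CPM ratio, computed with a prior count of 0.25, came to 3 or more and either library of that day held the gene at 1 CPM or above. At d2, the contrast that chose the genes, 3 of the 5 met this (Usp26, Sh3rf2 and Prdx6b), beside 0.114% of 13171 protein-coding genes compared, and nothing is read from that count. Ccr1l1 and Cndp1 did not reach 1 CPM on that day. The genes just inside the 3-fold limit at d2 were Tmem88b (3.14) and Abca12 (3.20), and those just outside were Slc7a9 (2.81) and Gm15128 (2.74).
At d0, 1 of the 5 was at least 3-fold higher (Sh3rf2), where the background was 0.584%. At d4, 2 of the 5 were higher (Usp26 and Ccr1l1) against a background of 0.361%, and with TMM scaling or DESeq2 size factors 1 of 5 was, since Ccr1l1 then lay just under 1 CPM. At d6, 1 of the 5 was higher (Ccr1l1), where the background was 2.7%. At d8, d10 and d12 the count was 0 of 5, where 5.47%, 8.65% and 8.1% of the genes compared were higher. From d4 to d12 the count of these genes thus went from 2 to 0, while the background was larger on each day from d6 on than at d4. Only 1 of the 5, Sh3rf2, reached 1 CPM on any of the last 3 days, so nothing is read from that fall.
The other 12 genes at least 3-fold higher at d2 serve as a comparison. None of the 12 was at least 3-fold higher at d0 with 1 CPM, and at d4, d6, d8, d10 and d12 the numbers were 1, 1, 1, 1 and 2. Tex13b was the gene of d4, at 3.17, and Acta2, smooth muscle actin, that of d6, d8 and d10, at 13.4, 13.5 and 12.2. Both were named because of these values, and both made up the count at d12. The median ratio of the 12 was 1.80 at d0 and then 0.708, 0.829, 0.859, 0.970 and 1.40 from d4 to d12. That of the 5 genes was 4.24 at d0 and then 2.61, 1.25, 0.861, 1.56 and 0.792, so that it was above that of the 12 at d0, d4, d6 and d10, alike at d8 and below it at d12. The median of 4.24 at d0 is the value of Prdx6b, which rests on 1 and 4 reads with an interval that includes 1. The 12 genes all reached 1 CPM at d2, which Ccr1l1 and Cndp1 did not. Both groups were chosen on the same libraries of d2, so this is a description, and nothing is read from the gap between them.

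**Figure D3:**
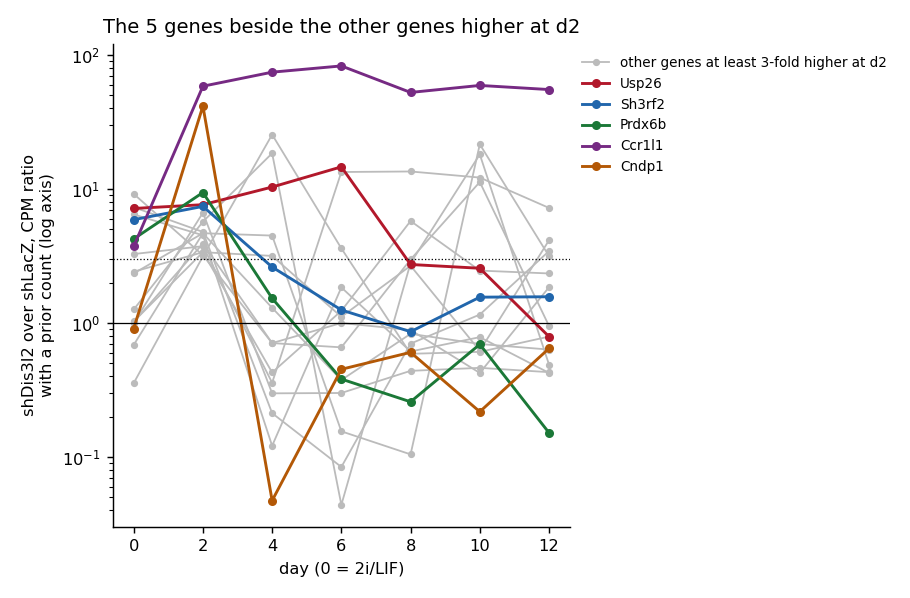
Level in shDis3l2 over shLacZ by day, on a log axis with a prior count of 0.25, for the 5 genes in color and the other 12 genes at least 3-fold higher at d2 in grey; points of genes at 0 in 1 library depend on the prior count. Ccr1l1 stays highest from d4 to d12 while the other 4 colored lines fall below 3 by d8.

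Whether the difference held over d4 to d12 was tested with edgeR's quasi-likelihood test over the 10 libraries of those days, with day as a block. The days belong to 1 series of each line and are not replicate cultures. The p-values therefore weigh the average difference between the lines against its day-to-day variation, not against variation between replicate cultures. Of the 5 genes, 1, Sh3rf2, passed the filter on low counts. It was at a log2 difference of 0.36 (standard error 0.26, Benjamini-Hochberg adjusted p = 0.331) and was not called, whereas 1843 of the 15926 genes tested were higher (11.6%) and 2326 were lower (14.6%). DESeq2 gave 0.43 for Sh3rf2 (adjusted p = 0.579), and with d0 added to the days edgeR gave 0.95 (adjusted p = 0.177).
Without the filter 31617 genes were tested and all 5 members could be fitted, with 7.96% of the genes called higher. Ccr1l1 was the 1 member called, with an adjusted p of 0.00102 by edgeR's quasi-likelihood test and higher on 5 of 5 days. With 0 reads in every shLacZ library, Ccr1l1 entered this fit through its counts in shDis3l2 alone, so nothing is read from that call. Leaving out each day in turn gave adjusted p-values between 0.000136 and 0.0046. Its fitted log2 difference of 6.61 depends on the prior count, since the shLacZ libraries are at 0, and is no bound.
Usp26 was at a log2 difference of 1.77 (standard error 0.58) with an adjusted p of 0.0560 by edgeR. Its CPM was above that in shLacZ on 4 of 5 days, of which d4 was the 1 with an interval above 1. Of these 4 days, d6 held 0 and 2 reads, both at or under the floor. The log2 difference of Usp26 rests on d4, as by edgeR it was 0.93 without d4 (adjusted p = 0.493) and 2.54 without d12 (adjusted p = 0.0123). Prdx6b was at -0.81 (standard error 0.50, adjusted p = 0.388), and Cndp1 at -1.57 (standard error 0.81, adjusted p = 0.264). Of the 5 genes, Ccr1l1 alone was thus called over later days in this fit, a call from which nothing is read. Its reads by day stand as a description.

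To see whether a stretch of chromosome moved with each gene, the genes within 500 kb that reached 1 CPM in a library were set beside it. At d2, none of the 3 neighbors compared for Usp26, 7 for Sh3rf2, 7 for Prdx6b, 8 for Ccr1l1 and 6 for Cndp1 was 3-fold higher or lower. Of all 13171 protein-coding genes compared at d2, 15 were 3-fold higher and 17 lower, so nothing is read from that count. For Usp26 the ratios lay between 0.601 and 0.934, with Hs6st2 72103 bases away at 0.601 (0.503 to 0.716) and Gpc4 at 0.934 (0.839 to 1.04). For Sh3rf2 they lay between 0.892 and 1.37, with Prelid2 at 1.37 (1.09 to 1.71) and Lars, the nearest at 43390 bases, at 1.13 (1.10 to 1.17). For Prdx6b they lay between 0.501 and 2.14, and Dnajc10, the nearest at 20110 bases, was at 0.978 (0.928 to 1.03).
For Ccr1l1 the ratios lay between 0.631 and 1.32. At d2 Ccr1, the nearest, held 0 reads in both lines. For Cndp1 the ratios lay between 0.942 and 1.29, and Cndp2, the paralog 17386 bases away, was at 1.13 (1.06 to 1.20). The median ratio of the neighbors was 0.726, 1.07, 1.10, 0.819 and 1.07 in the order Usp26, Sh3rf2, Prdx6b, Ccr1l1 and Cndp1. Since the 5 genes were chosen for their ratio at d2, the gap to their neighbors on that day follows in part from the choice. Over d4 to d12, 30 neighbors were tested by edgeR, and 3 were higher and 2 lower, beside 11.6% and 14.6% of all genes tested. The 3 were Hs6st2 beside Usp26 (log2 difference 0.80, adjusted p = 0.0136), Ppp2r2b beside Sh3rf2 (1.86, adjusted p = 0.0219) and Lztfl1 beside Ccr1l1 (0.69, adjusted p = 0.0194). The 2 that were lower, Cndp2 (-1.20, adjusted p = 0.00831) and Fbxo15 (-1.54, adjusted p = 0.00972), both lie beside Cndp1. Ppp2r2b, Lztfl1 and Fbxo15 were named because of these values.

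**Figure D4:**
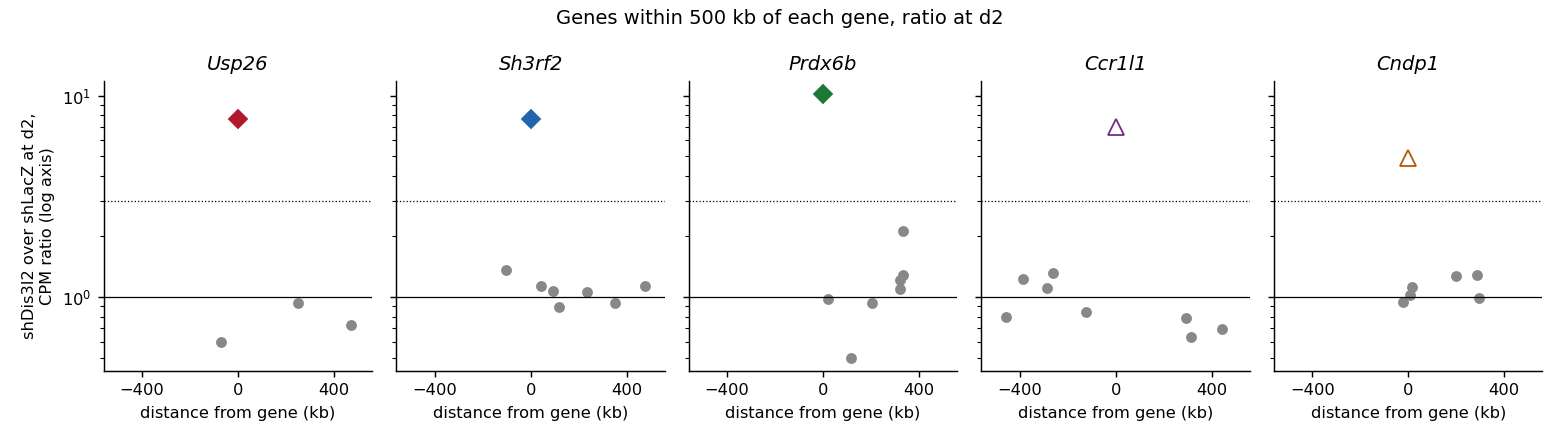
Level in shDis3l2 over shLacZ at d2 on a log axis against the distance from each of the 5 genes in kb, with the gene itself at 0 (diamond, or open triangle for a lower bound) and the genes within 500 kb at 1 CPM or more as grey circles. Each gene lies above the dotted line at 3, and each neighbor lies between 0.501 and 2.14.

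The genes most like each member across the 14 libraries were taken by Pearson's r of log2(CPM + 1) over 15349 protein-coding genes, as a description in which the points share lines, days and depth. For Usp26 they were Tmem74 (r = 0.957), 5430416O09Rik (r = 0.938) and Abca12 (r = 0.923). Tmem74 had 29 and 37 reads at d2 in shLacZ and shDis3l2, and 5430416O09Rik had 29 and 47. Both thus shared the peak at d2 with Usp26 but differed less between the lines, which follows in part from choosing Usp26 on that day. Likeness was weaker for the others, with Nt5c (0.828), Ift20 (0.780) and Sez6l (0.773) for Sh3rf2 and Scn4a (0.821), Eif3c (0.809) and 1700010I14Rik (0.809) for Prdx6b. For Ccr1l1 they were Cstf2t (0.882), Cdc26 (0.849) and Tcp11l1 (0.841), and for Cndp1 they were Cdkn1a (0.642), Nat8f4 (0.608) and Hspa1a (0.604). Among the 5 genes themselves r lay between -0.29 (Ccr1l1 and Cndp1) and 0.46 (Usp26 and Prdx6b) over the same 14 libraries, so their time courses were little alike.

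Among the ubiquitin-specific proteases near to Usp26 or X-linked, 7 of 7 were tested over d4 to d12. By the edgeR quasi-likelihood test 1 was higher (Usp11) and 2 were lower (Usp7 and Usp51), at a median log2 difference of -0.13 beside -0.03 over all genes tested. The counts of calls in this list and the next ones stand beside 11.6% of all genes tested called higher and 14.6% called lower. At d2 none of the 7 was 3-fold changed, with Usp7 at a ratio of 0.828, Usp9x at 1.004, Usp37 at 0.957 and Usp11 at 0.895. Of all 13171 protein-coding genes compared at d2, 15 were 3-fold higher and 17 lower. The counts of 0 at d2 in this list and the next ones are near that share, and nothing is read from them.
Of the POSH and JNK cascade partners of Sh3rf2, 13 of 14 were tested, and 3 were higher (Map3k10, Mapk8 and Mapk8ip1) and 1 lower (Map2k7), with a median log2 difference of -0.03. Of all genes tested, 11.6% were higher and 14.6% lower. None of the 12 compared at d0 or of the 14 compared at d2, the days on which Sh3rf2 was higher, was 3-fold changed. Of 12161 protein-coding genes compared at d0, 71 were 3-fold higher and 274 lower, so nothing is read from the count of that day either. Sh3rf1, which encodes POSH itself, was at a ratio of 0.764 (0.654 to 0.890) at d0 and 0.669 (0.576 to 0.774) at d2. Rac1, a GTPase bound by POSH, was at 0.926 and 0.824, and Ppp1ca, a phosphatase subunit, at 0.895 and 0.955.
Of the peroxiredoxins and their partners, 14 of 14 were tested, with 3 higher (Prdx3, Prdx4 and Prdx5), 3 lower (Txnrd1, Srxn1 and Gpx1) and a median log2 difference of -0.09. The shares over all genes tested were 11.6% higher and 14.6% lower. At d2 none was 3-fold changed, and Prdx1, the most abundant, was at a ratio of 1.25, Prdx2 at 0.901, Txn1, a thioredoxin, at 1.16 and Gpx1, a glutathione peroxidase, at 1.21.
Of 13 CC chemokine receptors and relatives, 1 (Ccr4) passed the filter and was not called (log2 difference -0.64, adjusted p = 0.202 by edgeR). No receptor of the list reached 1 CPM at d0, d2 or d4. At d10 and d12, 3 of 3 compared were 3-fold higher, beside 8.65% and 8.1% of all genes compared, among them Cx3cr1, a receptor of microglia and monocytes, with 2 and 150 reads at d10 and 31 and 183 at d12 in shLacZ and shDis3l2. At d2, d4 and d6, when Ccr1l1 had 17, 21 and 12 reads in shDis3l2, Cx3cr1 was at 0 reads in both lines.
Of 17 CC chemokine ligands, 3 were tested and 0 called by edgeR, with 5 of 7 compared 3-fold higher at d10, beside the same 8.65%. Ccl25, the most abundant, was at ratios between 0.541 and 1.37 over the 7 days. Ccl9 had 4 and 34 reads at d8, 3 and 175 at d10 and 25 and 110 at d12 in shLacZ and shDis3l2.
Of 9 genes of carnosine synthesis, transport and breakdown, 6 were tested and 1, Cndp2, was lower (log2 difference -1.20, standard error 0.20, adjusted p = 0.00831 by edgeR), beside 14.6% of all genes tested. Cndp2, a broad dipeptidase, was at ratios of 0.973 (0.941 to 1.01) at d0, 1.13 at d2 and 0.300 (0.280 to 0.322) at d6. Slc6a6, the taurine transporter, was at 0.892 at d2, and none of the 6 compared was 3-fold changed on that day. Genes named from a count of calls in this and the preceding lists were chosen after their values were seen.

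Markers of other cells were read beside the genes. At d2 the summed level of 9 two-cell-like markers was 205 CPM in shLacZ and 136 CPM in shDis3l2, and that of 10 germ cell-like markers was 143 CPM in both. None of the 9 or of the 10 was 3-fold changed, nor was any of 10 pluripotency-like markers (1404 and 1412 CPM), beside the ratio of 7.65 for Usp26. Of all 13171 protein-coding genes compared at d2, 15 were 3-fold higher and 17 lower. Nothing is therefore read from these counts or from those of the markers below at d2. Over the 7 days the sums ranged from 5.86 to 205 CPM in shLacZ and from 1.13 to 136 CPM in shDis3l2 for two-cell-like, and from 26.4 to 173 CPM and 19.5 to 159 CPM for germ cell-like markers. In the fit over d4 to d12, 0 of 5 and 2 of 6 of these markers were called, the 2 (Ddx4 and Sycp3) lower, and 7 of 10 pluripotency-like markers were lower, beside 14.6% of all genes tested.
The 10 leukocyte-like markers, read beside Ccr1l1, summed to 15.4 to 231 CPM in shLacZ and 8.48 to 313 CPM in shDis3l2. Both highest sums were at d0, in undifferentiated cells, and were mostly Laptm5 (7572 and 7169 reads) and Cd68 (1372 and 947 reads). At d0, 4 of the 10 markers were at 0 reads in each line. At d2, when Ccr1l1 was first counted above the floor, shLacZ summed to 31.8 CPM and shDis3l2 to 41.1 CPM. At d4 the sums were 18.0 and 14.5 CPM and at d6 15.4 and 8.48 CPM. Ptprc, which encodes the pan-leukocyte protein CD45, was at 10 and 2 reads at d2 and at 0 in both lines at d4 and d6. Other markers of the list were counted in these libraries, such as Cd68, a lysosomal protein of macrophages, at 70 and 126 reads at d4 and 127 and 53 at d6, Coro1a at 37 and 143 reads at d4, and Csf1r, a receptor of macrophages, at 40 and 9 at d6. At d10, 6 of 9 compared were 3-fold higher in shDis3l2 (8.65% of all genes compared), and at d12, 8 of 10 were (8.1%), when Ccr1l1 was at 17 and 8 reads. In the fit 0 of 4 tested were called, beside 11.6% of all genes tested called higher and 14.6% called lower. The part of these cells in the Ccr1l1 reads was not tested.
The 10 proximal tubule-like markers, read beside Cndp1, summed to 451 and 395 CPM at d2, none of the 4 compared was 3-fold changed, and the defining transporter Slc34a1 was at 0 in all 14 libraries. Their sums ranged from 6.94 to 3880 CPM in shLacZ and 5.85 to 946 CPM in shDis3l2, mostly Lrp2 and Cubn, and 4 of 5 were lower over d4 to d12, beside 14.6% of all genes tested. The 10 markers of visceral endoderm-like cells, which also express Lrp2 and Cubn, summed to 123 and 99.4 CPM at d2, ranged from 6.47 to 5325 CPM and 10.3 to 1682 CPM, and 9 of 10 were lower over d4 to d12, beside the same 14.6%. The part of the changing cell makeup in the ratios of the 5 genes after d4 was not tested.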

How the data were processed

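PolyA RNA of 14 libraries was sequenced by the authors, aligned to GRCm38 with Subread and counted with featureCounts. The deposited counts are whole reads of 50686 genes, as the authors made them. The deposited CPM values, computed by the authors with edgeR for 16181 protein-coding genes, equal the CPM of the count plus 0.25 and were used as an alternative. The knockdown columns carry a name that the labels do not use (shm5) and were taken as shDis3l2, the 1 other sample of each day. Strand use in counting is not given in the sources used here. No member overlaps another counted gene. CPM was recomputed over library totals. The line difference over d4 to d12 was tested with edgeR 4.0.16 (quasi-likelihood, TMM, filterByExpr, day as a block, Benjamini-Hochberg adjusted p under 0.05) in R 4.3.3, and DESeq2 1.42.0 was an alternative. Fits and intervals were tested on simulated data. Other steps used Python 3.11.15. Named genes are the 5 members, Dis3l2, Prdx6 and Ccr1, the nearest neighbors, the 3 genes of highest r per member, the genes next to the 3-fold limit and the most abundant genes of each list, of which 1 is not reported here. The members, the 6 lists of related genes and the 6 marker lists were chosen with earlier results of these data known. PCR reads are not independent molecules, so the intervals and the floor reflect counting error alone.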

Additional observations from a re-analysis of the deposited data

Results flagged for a closer look

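Prdx6b was singled out because its difference between the lines pointed in opposite directions on 2 days. The CPM in shDis3l2 over shLacZ was 10.2 at d2, from 4 and 33 reads, and 0.376 at d6, from 20 and 6 reads, with counting intervals on either side of 1. The difference between the days was not tested, since each line has 1 library a day, and d2 is the day that chose the gene.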

How the results depend on the processing

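The number of the 5 genes at least 3-fold higher moved with the minimum CPM. Without a minimum it was 4 at d0, 5 at d2, 2 at d6 and 1 each at d8, d10 and d12, and with a minimum of 5 CPM it was 0 at d0, 1 at d2 and 0 at d4 and d6. With TMM or DESeq2 size factors it was 1 at d4. The 105 alternative log2 ratios of single genes and days kept their sign where the interval excluded 1, and all lay within the counting interval.
Over d4 to d12 edgeR called 4169 genes. Adding d0 gave 1624 and dropping the day block 219, and leaving out 1 day gave between 971 (without d8) and 6217 (without d4), with 2506 without d6, 1218 without d10 and 1664 without d12. The cause was not tested. The number of members called higher was 0 with the filter, 1 without it and between 0 and 2 with a day left out. Ccr1l1 was the 1 called without the filter, and with the filter it entered the test when d12 was left out (adjusted p = 0.0424 by edgeR). It entered both through its counts in shDis3l2 alone, so nothing is read from either call. Usp26 was the second without the filter and d12. The fits without the filter and 1 day were added after the data were seen. Sh3rf2 was called in none of 12 alternatives, with adjusted p-values between 0.177 and 0.788. The day block pairs the 2 lines by day. With 3 reads as the floor, a level under 0.418 CPM cannot be told from 0 in the shallowest library.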
